A study of Arabidopsis thaliana with 9 samples.

Results

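The chloroplast genome of Arabidopsis thaliana keeps a small set of photosynthesis genes, and 43 of them are described here in leaf RNA. They were a set list of plastid loci for photosystem II (15 genes), photosystem I (5), the cytochrome b6f complex (6) and the chloroplast ATP synthase (6). The list also held the NDH complex (10), and rbcL for the large subunit of Rubisco. The 10 NDH genes were ndhA and ndhC to ndhK, so ndhB was not included. These 43 were chosen by locus from 133 plastid loci and 33602 loci in all. The leaves came from plants of 3 genotypes at 4 to 5 weeks of age, with 3 libraries each that the labels call biologically independent. WT was unmutated Col-0. F1 was the first generation of a cross, Col-0 X ddm1, with the genotype DDM1/ddm1, so its nuclei held a wild-type allele and a mutant allele. The ddm1 group was ddm1(-/-) in its 2nd generation. No treatment is named. The ddm1 allele, the number of plants per library and the time of day at harvest are not stated in the labels. DDM1 is a nuclear chromatin remodelling ATPase that keeps transposons methylated and silent. The series was set up to look at transposon expression, so the plastid genes were not its stated subject.

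As background, each photosynthetic complex is built from both plastid-encoded subunits and nuclear-encoded ones that are imported. Photosystem II splits water, the cytochrome b6f complex passes electrons on to photosystem I, the ATP synthase uses the resulting proton gradient, the NDH complex runs cyclic electron flow around photosystem I, and Rubisco fixes carbon dioxide. Most plastid genes are transcribed in long polycistronic units by a bacterial-type RNA polymerase that needs nuclear-encoded sigma factors, and much of the control of plastid messenger levels lies in RNA processing and stability. Stable plastid messengers lack long poly(A) tails, and the RNA here was depleted of ribosomal RNA rather than selected for poly(A).

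Library totals ran from 15996806 to 22425699 estimated counts. Plastid loci held 63.8% to 72.0% of them, against 0.57% to 0.816% on mitochondrial loci. Plastid ribosomal RNA left after depletion differed between libraries: WT 1, WT 2 and ddm1 2 held 62038, 74500 and 54285 counts of it and the other 6 libraries 2082 to 11539. Levels are given on 2 scales. The pool percentage is a gene's share of all plastid messenger counts other than psbA, a pool of 3076799 to 5892280 counts per library. The whole-table scale uses all loci with TMM normalisation. Markers of leaf (RBCS1A, LHCB1.3 and RCA) were present in every library, at summed levels of 8170 to 14720 CPM in WT (counts scaled to a library total of 1000000), 1900 to 4394 in F1 and 6957 to 12386 in ddm1. All 3 seed markers and 1 of the 3 root markers (COBL9) were at 0, and the 4 flower markers summed to 0.342 to 6.42 CPM. With SCR and SHR present, the 3 root markers summed to 13.5 to 22.3 CPM in WT, 7.97 to 14.3 in F1 and 13.8 to 16.9 in ddm1. The F1 range of the summed leaf markers thus lay below both others, as did RBCS1A and RCA by themselves. LHCB1.3 overlapped, at 2512, 4009 and 1497 CPM after TMM in WT and 941, 1536 and 2546 in F1. The part of these markers in the plastid results was not tested. Differences per library cannot separate fewer chloroplasts from less RNA in each.

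Of the 43 genes, 31 had counts and the other 12 were listed at 0 in all 9 libraries. The 12 were petN, petL, psbT, psbM, psbI, psaI, petG, psbL, psbF, psbJ, psbN and psaJ, genes of small membrane proteins with targets of 90 to 135 bases. In the whole table none of the 1273 targets shorter than 150 bases had a count, and the shortest target with counts had 168 bases. A value of 0 for these genes therefore gives no level. Counts remained for 8 of 15 genes of photosystem II, 3 of 5 of photosystem I and 3 of 6 of cytochrome b6f. They also remained for all 6 of the ATP synthase, all 10 listed for NDH, and rbcL. The following coding sequences show the size of what was and was not counted: petN, the shortest gene, psaJ, the longest listed at 0, and psbK, the shortest with counts. They are from the RefSeq TAIR10.1 chloroplast sequence, whose coding lengths equal the target lengths for 42 of the 43 genes (the exception is ndhD, with 1521 bases in the files). All lie on the plus strand, at chloroplast:28089-28178, chloroplast:66929-67063 and chloroplast:7017-7202. Start and stop codons are in capitals.
petN: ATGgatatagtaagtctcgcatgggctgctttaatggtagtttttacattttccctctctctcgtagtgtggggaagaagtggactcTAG
psaJ: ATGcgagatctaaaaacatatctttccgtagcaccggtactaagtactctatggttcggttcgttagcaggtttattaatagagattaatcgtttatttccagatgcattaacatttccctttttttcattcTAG
psbK: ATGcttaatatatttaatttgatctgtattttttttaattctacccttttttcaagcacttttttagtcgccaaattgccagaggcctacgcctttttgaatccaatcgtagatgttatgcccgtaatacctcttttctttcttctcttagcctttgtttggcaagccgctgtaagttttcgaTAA

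**Figure D1:**
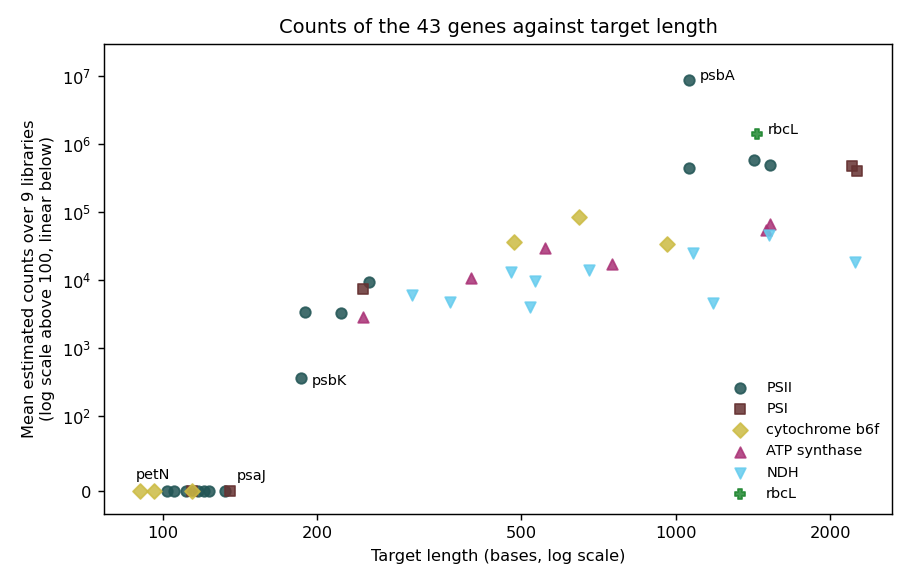
Mean estimated counts of each of the 43 genes over 9 libraries (vertical axis, log scale above 100 and linear below) against target length in bases (horizontal axis, log scale), with a marker shape and colour for each complex. The 12 genes at 0 have targets of 90 to 135 bases, and psbK, with 186 bases, is the shortest with counts.

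Some neighbours share bases, so a read of 50 bases can touch both genes. The start of psbC lies inside the end of psbD over 53 bases (chloroplast:33720-33772, plus strand), and the end of atpB overlaps the start of atpE by 4 bases (chloroplast:52660-52663, minus strand). Both overlaps are shown in capitals with 20 bases on each side.
psbD/psbC: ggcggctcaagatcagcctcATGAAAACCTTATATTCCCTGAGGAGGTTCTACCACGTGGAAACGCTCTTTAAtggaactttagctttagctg
atpB/atpE: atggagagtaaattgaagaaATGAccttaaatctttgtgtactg
How the counting placed reads from the overlaps is not stated in the labels. Values of psbC and psbD are uncertain to that extent, since a whole read fits in their overlap. The 4 bases of atpB and atpE cannot hold a whole read, so only reads that cross their junction are in question. Estimated counts were seen as not whole for 2 of the 43 genes, atpI and ndhF. Large counts, such as 451694 for psbD and 565448 for psbC in WT 1, were given without decimals. A fraction could not show for these, so whole values there say nothing about shared reads. Whether atpI, ndhF or the genes with large counts share reads with other targets was not tested.

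psbA (ATCG00020, chloroplast:383-1444, minus strand), which encodes the D1 protein of the photosystem II reaction centre that is replaced after light damage, dominated the plastid counts in every library. It took 60.8%, 51.0% and 71.2% of plastid counts in WT, 73.7%, 78.7% and 67.3% in F1, and 61.2%, 66.9% and 60.7% in ddm1. The F1 and ddm1 libraries did not overlap, whereas WT 3 lay within the F1 range and WT 2 below all other libraries. The means were 61.0% ± 10.1 in WT, 73.2% ± 5.74 in F1 and 62.9% ± 3.43 in ddm1 (SD, n = 3 each). Exact two-sided permutation tests on these shares gave p = 0.2 for F1 against WT, 0.1 for ddm1 against F1 and 0.9 for ddm1 against WT, where 0.1 is the smallest p that 3 libraries against 3 can give. The other 30 genes with counts took the mirror share of plastid counts, 37.3%, 46.1% and 27.7% in WT, 25.3%, 20.5% and 31.5% in F1, and 37.1%, 31.5% and 37.5% in ddm1 (exact permutation p = 0.9 for ddm1 against WT and 0.2 for both other pairs). With psbA included, the plastid share of all counts was higher in F1 (70.8% ± 1.12) than in WT (66.7% ± 2.44) and ddm1 (66.5% ± 0.905), with no overlap (exact permutation p = 0.1 for each, n = 3). psbA alone took 40.8% ± 8.07 of all counts in WT, 51.9% ± 4.47 in F1 and 41.8% ± 2.67 in ddm1. The plastid messengers other than psbA were lower on average in F1, at 18.9% ± 3.88 against 25.6% ± 5.67 in WT and 24.5% ± 2.28 in ddm1, with overlap.

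**Figure D2:**
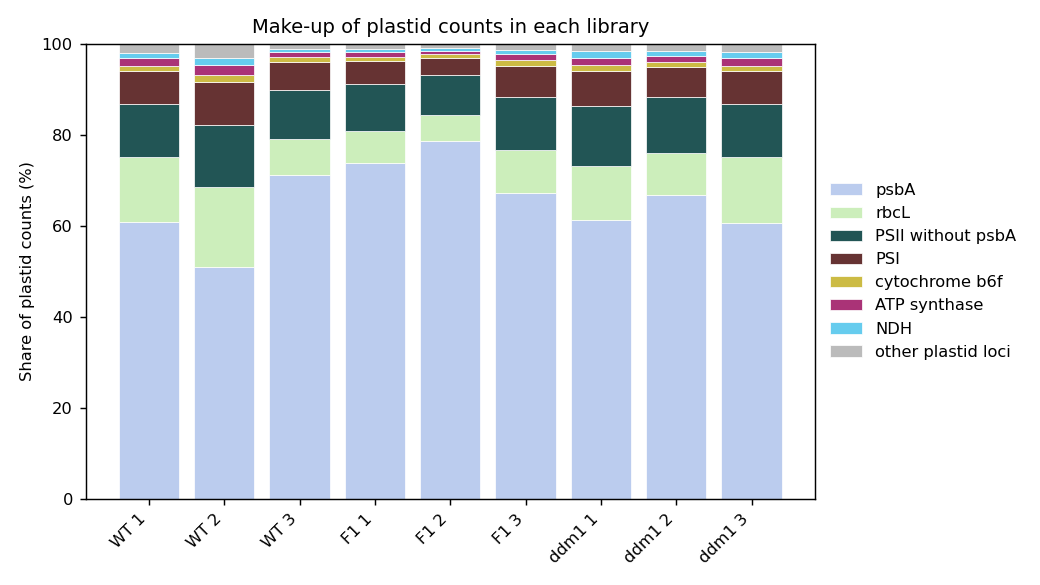
Share of plastid counts in percent (vertical axis) for psbA, rbcL, each complex and all other plastid loci (stacked colours) in each of the 9 libraries (horizontal axis). psbA runs from 51.0% in WT 2 to 78.7% in F1 2, and the bars of rbcL and the complexes shrink where psbA is large.

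In edgeR's quasi-likelihood test over all 18216 tested loci, psbA was 0.58 ± 0.25 (SE) higher in F1 than in WT on the log2 scale, with an adjusted p of 0.115. On the pool scale its log2 difference was 0.75 ± 0.31 with an adjusted p of 0.112. Neither passed the threshold of 0.05. The difference depended on single WT libraries. Without WT 3, the WT library with the highest psbA share, it was 1.12 on the pool scale with an adjusted p of 0.0245. Without WT 2, the one with the lowest, psbA differed by 0.50 on the pool scale (adjusted p = 0.322) and by 0.32 on the whole-table scale (adjusted p = 0.401). Without the 3 libraries rich in plastid ribosomal RNA, which leaves WT 3 as the only WT library, it differed by 0.21 on the pool scale. Between ddm1 and F1 psbA differed by -0.73 on the pool scale (adjusted p = 0.138), and between ddm1 and WT by 0.02 (adjusted p = 0.999).

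None of the 31 genes with counts passed the test in any of the 3 comparisons on either scale. On the whole-table scale 7.37% of all tested loci were called for ddm1 against WT, 23.2% for F1 against WT and 16.5% for ddm1 against F1. On the pool scale the shares were 7.38%, 18.8% and 12.2%. The pool-scale shares cover nuclear loci divided by the plastid pool, so they are not a like baseline for genes inside it. At an unadjusted p under 0.05 edgeR had 0 of the 31 genes for ddm1 against WT, 2 for F1 against WT (psbA and psbE) and 2 for ddm1 against F1 (psbZ and ndhI), on the whole-table scale. DESeq2, which called 8.92%, 30.4% and 24.7% of all loci in these comparisons, called 0, 0 and 1 of the 31 genes, the last being psbZ, higher in ddm1 than in F1 by 0.68 with an adjusted p of 0.0413. The comparisons share libraries with each other, so their values are not independent.

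rbcL (ATCG00490, chloroplast:54958-56397, plus strand), the gene of the Rubisco large subunit, was the most abundant of the other genes, with a mean of 31.0% of the pool. It held 36.8%, 36.4% and 27.1% of the pool in WT, 27.3%, 26.8% and 29.0% in F1, and 30.9%, 27.8% and 36.7% in ddm1. WT 3 sat with the F1 libraries, so WT and F1 overlapped. The log2 difference on the pool scale was -0.27 ± 0.21 for F1 against WT (adjusted p = 0.389) and 0.20 ± 0.21 for ddm1 against F1 (adjusted p = 0.544). rbcL, psbC, psbB, psaB, psbD and psaA together made 84.9% of the pool, and all 30 genes made 96.1%. Per effective length, as TPM relative to the TPM of the pool, psbA stood at 223% on average and rbcL at 23.2%. Next came psbD at 10.8%, psbC at 10.1%, psbB at 7.78%, psaB at 4.91% and psaA at 3.99%. The ranges over libraries of psbD (8.30% to 13.0%) and psbC (7.89% to 12.7%) overlapped almost wholly, while rbcL (19.9% to 27.8%) lay above both in every library. At the other end of this order stood ndhI at 0.24%, ndhF at 0.18% and ndhH at 0.10%. The effective length that TPM divides by is far below the target length for short targets. It was 19.1 bases for psbK (target of 186) and 67.0 for atpH (target of 246). The labels do not state the fragment setting behind it, so the places of short targets in this order are uncertain.

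Among the core genes of photosystem II, psbC encodes the inner antenna protein CP43, psbB its partner CP47 and psbD the D2 reaction centre protein. psbC held 10.9%, 10.2% and 14.9% of the pool in WT, 15.8%, 17.0% and 14.0% in F1, and 12.7%, 13.6% and 10.7% in ddm1. Its F1 values were all above its ddm1 values, and WT 3 lay among the F1 libraries. The pool-scale log2 difference of F1 from WT was 0.38 ± 0.23 (adjusted p = 0.273). psbK, a small subunit with a short target, had the fewest counts of the 31 genes, 215 to 481 per library. It held 0.00772%, 0.00816% and 0.00858% of the pool in WT, 0.00613%, 0.00699% and 0.00908% in F1, and 0.00779%, 0.00794% and 0.00888% in ddm1, with overlapping groups. In WT 1 its Wilson 95% interval was 0.00700% to 0.00851% of the pool, which covers counting error only. psbZ, whose product was linked in tobacco and Chlamydomonas to the joining of the light-harvesting antenna to photosystem II, held 0.0512%, 0.0699% and 0.0722% in WT, 0.0810%, 0.0829% and 0.0485% in F1, and 0.0985%, 0.0888% and 0.0801% in ddm1. The ddm1 values of psbZ lay above all WT values, while F1 3 was the lowest of the 9 libraries. Its whole-table log2 difference between ddm1 and F1 was 0.63 ± 0.27 with an adjusted p of 0.139 in edgeR.

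psbE (ATCG00580, chloroplast:64071-64322, minus strand), which encodes the alpha subunit of cytochrome b559, varied most between libraries, and a single library carried most of that spread. It held 0.485%, 0.179% and 0.164% of the pool in WT, 0.130%, 0.116% and 0.196% in F1, and 0.170%, 0.162% and 0.157% in ddm1. WT 1 had 25204 counts of psbE, and the other 8 libraries had 3558 to 10522. The whole-table log2 difference of F1 from WT was -1.17 ± 0.51 (adjusted p = 0.128), and without WT 1 it was -0.36 (adjusted p = 0.554). For ddm1 against WT the difference went from -0.76 to 0.04 without WT 1. Without WT 3 the F1 difference was -1.61 with an adjusted p of 0.0406, which passed the threshold.

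The photosystem I reaction centre genes psaA and psaB were among the steadiest. psaB held 10.0%, 10.4% and 11.4% of the pool in WT, 10.4%, 9.44% and 11.4% in F1, and 10.8%, 11.0% and 10.1% in ddm1, with the 3 groups overlapping. The standard deviation of its log2 pool share over the 9 libraries was 0.091, the smallest of the 30 genes, followed by psaA at 0.097 and psbB at 0.103. The largest were psbE at 0.588, psbZ at 0.345 and atpE at 0.291. psaC, for the subunit that carries the terminal iron-sulfur clusters, held 0.142%, 0.164% and 0.148% of the pool in WT, 0.151%, 0.183% and 0.198% in F1, and 0.163%, 0.193% and 0.126% in ddm1. Its lowest and highest values were in ddm1 3 and F1 3, and all groups overlapped.

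In the cytochrome b6f complex, petB encodes cytochrome b6, petD subunit IV and petA cytochrome f. petB held 1.63%, 1.43% and 2.10% of the pool in WT, 2.26%, 2.54% and 2.00% in F1, and 1.86%, 2.09% and 1.67% in ddm1. F1 3 lay below WT 3, so the groups overlapped, and the pool-scale log2 difference of F1 from WT was 0.40 ± 0.26 (adjusted p = 0.294). petA held 0.700%, 0.801% and 0.653% in WT, 0.727%, 0.721% and 0.814% in F1, and 0.812%, 0.728% and 0.763% in ddm1, with all groups overlapping. The 3 genes together took 3.16%, 3.02% and 3.75% of the counts of the 30 genes in WT, 4.03%, 4.40% and 3.81% in F1, and 3.62%, 3.89% and 3.35% in ddm1. F1 lay above WT without overlap (exact permutation p = 0.1, n = 3, adjusted to 0.514 over 18 comparisons of complex shares).

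All 6 ATP synthase genes, atpA, atpB and atpE of the catalytic head and atpF, atpH and atpI of the membrane part, were measured. Their shares of the counts of the 30 genes were 4.60%, 5.10% and 3.61% in WT, 3.77%, 3.56% and 4.20% in F1, and 4.15%, 3.74% and 4.36% in ddm1, with all groups overlapping. atpA, for the alpha subunit, held 1.62%, 1.81% and 1.28% of the pool in WT, 1.32%, 1.21% and 1.55% in F1, and 1.53%, 1.36% and 1.37% in ddm1. atpE, for the epsilon subunit, held 0.269%, 0.302% and 0.200% in WT, 0.200%, 0.185% and 0.208% in F1, and 0.239%, 0.198% and 0.318% in ddm1. WT 3 again had the lowest value of its group for both genes and lay within the F1 range. The atpE difference of F1 from WT was -0.64 ± 0.38 on the whole-table log2 scale (adjusted p = 0.254). atpH, for the subunit of the membrane ring, had the fewest counts of the 6. It held 0.0597%, 0.0669% and 0.0488% of the pool in WT, 0.0661%, 0.0488% and 0.0624% in F1, and 0.0683%, 0.0758% and 0.0634% in ddm1. Its groups overlapped. Per effective length, atpI was the lowest of the 6, at 0.62% of the TPM of the pool against 0.88% for atpH. The atpH value rests on an effective length of 67.0 bases for a target of 246, so this order is uncertain.

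The summed share of the 10 NDH genes was higher in each ddm1 library than in any WT or F1 library, which was not so gene by gene. Together the 10 took 3.13%, 3.41% and 2.98% of the counts of the 30 genes in WT, 3.22%, 3.28% and 3.21% in F1, and 4.11%, 3.47% and 3.43% in ddm1. The ddm1 3 value was only just above WT 2. The exact permutation p was 0.1 against each group (n = 3), adjusted to 0.514 over the 18 comparisons. Without ddm1 1, the highest library, the mean difference of ddm1 fell from 0.497 to 0.277 percentage points against WT and from 0.433 to 0.213 against F1. The fitted difference of ddm1 from WT was above 0 for 10 of 10 genes on both scales, and no gene passed the test. Medians were 0.262 on the whole-table log2 scale (0.03 over all tested loci) and 0.219 on the pool scale (-0.07). The 10 are not independent. ndhH, ndhA, ndhI, ndhG, ndhE and ndhD share a transcription unit, ndhC, ndhK and ndhJ share another, and all were measured in the same libraries. Without WT 3, 8 of 10 were above 0 on the whole-table scale, and without ddm1 1, 8 of 10 on the pool scale.

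ndhK (ATCG00430, chloroplast:49257-49934, minus strand), of the arm that faces the stroma, held 0.272%, 0.285% and 0.267% of the pool in WT, 0.323%, 0.326% and 0.295% in F1, and 0.374%, 0.329% and 0.371% in ddm1. Its 3 groups did not overlap, and the pool-scale log2 difference of ddm1 from WT was 0.38 ± 0.26 (adjusted p = 0.786). ndhD, of the membrane arm, was the most abundant NDH gene by counts and held 0.856%, 0.946% and 0.965% in WT, 1.08%, 1.14% and 1.07% in F1, and 1.21%, 1.06% and 0.974% in ddm1. WT was the lowest group for ndhD, and ddm1 3 lay below all F1 libraries. ndhF, also of the membrane arm, held 0.486%, 0.486% and 0.321% in WT, 0.340%, 0.307% and 0.337% in F1, and 0.425%, 0.398% and 0.474% in ddm1. Here F1 was below ddm1 in every library, WT 3 lay with F1, and WT 1 and WT 2 lay above every ddm1 library. Its whole-table log2 difference of F1 from WT was -0.66 ± 0.36 (adjusted p = 0.209), and without WT 3 it was -1.03 with an adjusted p of 0.0386. ndhI, an iron-sulfur subunit, held 0.0887%, 0.0931% and 0.0806% in WT, 0.0693%, 0.0759% and 0.0813% in F1, and 0.125%, 0.0876% and 0.0869% in ddm1. Its ddm1 values lay above its F1 values, with a whole-table log2 difference of 0.68 ± 0.29 (adjusted p = 0.140). Groups did not overlap on the pool scale for 4 of the 31 genes for ddm1 against WT (psbZ, ndhK, ndhC and ndhD), where 15.4% of all tested loci did not overlap. For F1 against WT there were 3 (ndhK, petD and ndhD, beside 36.4% of all loci). For ddm1 against F1 there were 7 (psbA, psbC, ndhK, ndhF, ndhI, ndhA and ndhH, beside 41.3%). These shares over all loci also carry shifts of the pool against nuclear loci. The median pool-scale log2 difference over all loci was 0.31 for F1 against WT and -0.26 for ddm1 against F1. They are thus not a like baseline for plastid genes.

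**Figure D3:**
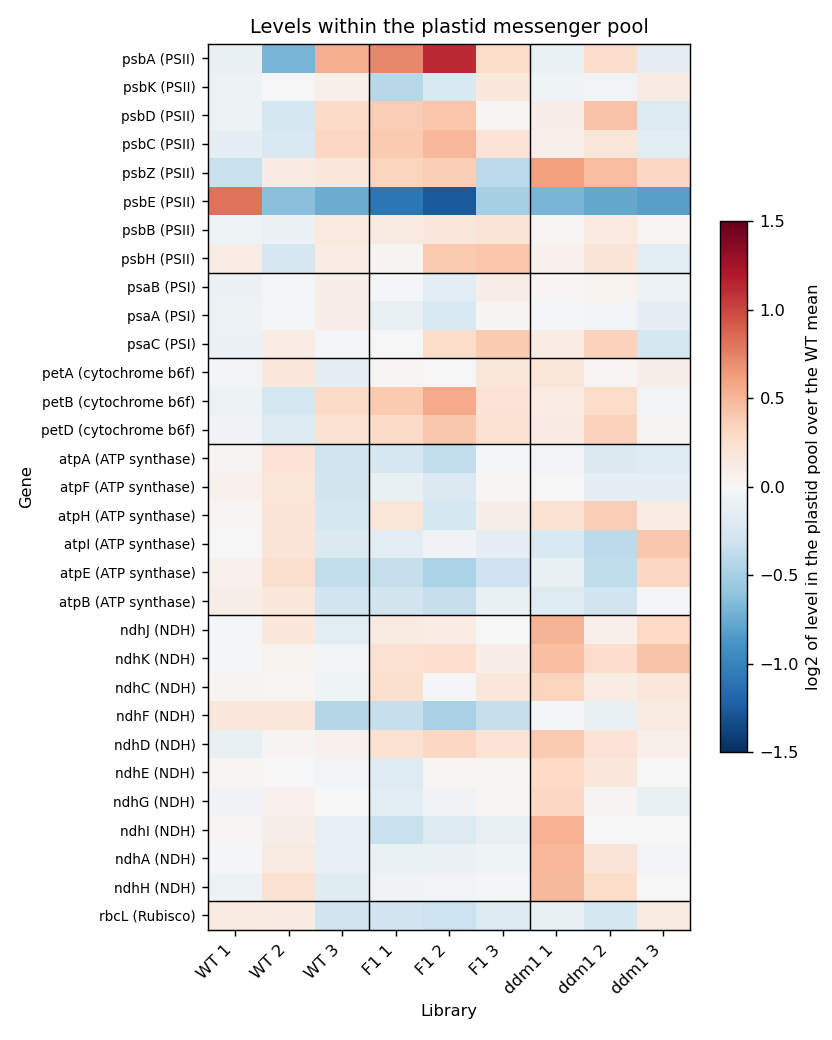
Level of each of the 31 genes with counts (rows, by complex) in each library (columns), as the log2 ratio of its level relative to the plastid messenger pool to the WT mean; red is above and blue below. The psbE row is high in WT 1 alone, WT 3 resembles the F1 libraries in the psbA, psbC and rbcL rows, and the NDH rows are mostly red in ddm1 1.

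Direction across the genes depended on the scale and on which libraries were used. For F1 against WT, 24 of 31 genes were below 0 on the whole-table scale (median log2 difference -0.23; 0.12 over all tested loci), whereas on the pool scale 16 were below 0 (median -0.03; 0.31 over all loci). The 6 ATP synthase genes were all below 0 on the whole-table scale and 5 of 6 on the pool scale. Without the 3 libraries richest in plastid ribosomal RNA, which left WT 3 as the only WT library, 28 of 31 were above 0 on the whole-table scale (median 0.19), the 6 ATP synthase genes among them. In that fit a lone WT library is assumed to vary like the other groups. For ddm1 against F1, 29 of 31 genes were above 0 on the whole-table scale (median 0.37; 0.01 over all loci) and 22 on the pool scale, and without the same 3 libraries the numbers were 29 and 21. For ddm1 against WT, 25 were above 0 (median 0.14; 0.03 over all loci), and without those libraries 30 were above 0 (median 0.69).

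Ratios between pairs of genes were followed to see how far neighbours moved together. Within a transcription unit, the ratio of psaA to psaB in TPM stayed between 0.79 and 0.84 in all 9 libraries, that of ndhA to ndhH between 5.69 and 6.39, and that of petB to petD between 1.43 and 1.68. psbC to psbD ran from 0.78 to 1.07 and atpB to atpE from 0.67 to 0.96, both pairs that overlap. Between separate units, atpA to atpB ran from 1.05 to 1.33, as narrow a range as some pairs within a unit. psaA to psbB ran from 0.43 to 0.59, psbD to rbcL from 0.30 to 0.65, psbA to psbD from 13.7 to 30.2 and psbA to rbcL from 4.12 to 19.7. These are descriptions of chosen pairs, with no test.

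The order of the libraries for psbA and psbC was the same and crossed the genotypes. Ranked from the highest to the lowest over the 9 libraries, the psbC share of the pool was in exactly the order of the psbA share of plastid counts. psbD, which overlaps psbC, did not follow that order: ddm1 2 ranked 1 of 9 for psbD and 5 for psbA. The order for rbcL was not the exact reverse either. In each of the 3 groups the library with the highest psbA share (WT 3, F1 2 and ddm1 2) had the lowest rbcL share. The 3 libraries with the lowest psbA shares, WT 2, ddm1 3 and WT 1, had the 3 highest rbcL shares, 36.4%, 36.7% and 36.8%. RBCS1A, a nuclear gene for the Rubisco small subunit, was also highest in those 3 libraries, at 3157, 3176 and 2134 CPM after TMM, against 274 to 891 in the other 6. The pool enters the denominator of all 3 plastid shares, depth and leftover ribosomal RNA differ between the same libraries, and their part in this order was not tested.

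**Figure D4:**
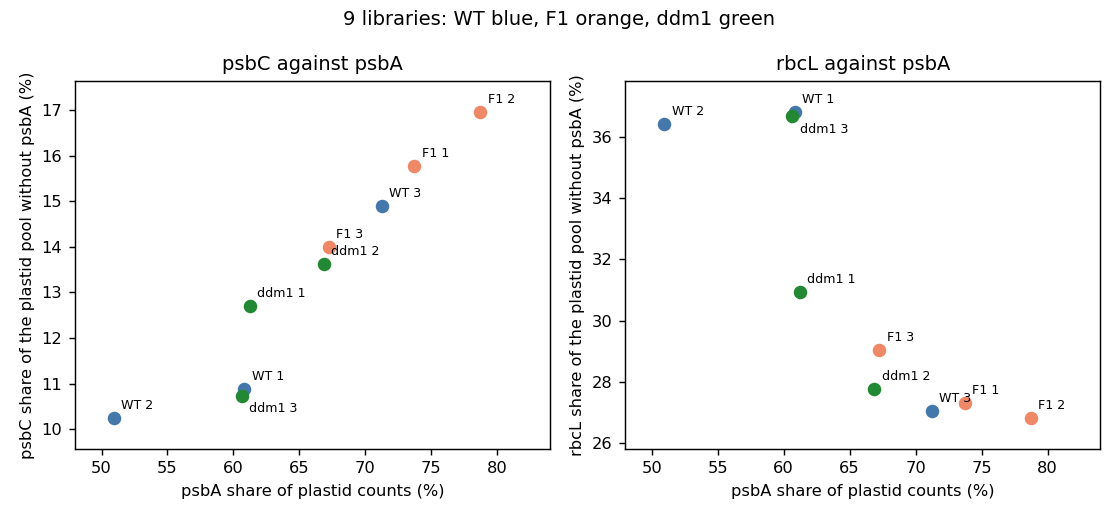
Share of the plastid messenger pool without psbA, in percent, of psbC (left) and rbcL (right) against the psbA share of plastid counts in percent, with a point for each of the 9 libraries (WT blue, F1 orange, ddm1 green). psbC rises with psbA through the same order of libraries, and rbcL is highest in WT 1, WT 2 and ddm1 3, where psbA is lowest.

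The nuclear-encoded subunits of the same complexes were compared in the same fit. Of 38 nuclear subunits tested, 30 fell in F1 against WT and 0 rose, where 9.66% of all tested loci fell; their median log2 difference was -1.92. By complex, 6 of 10 nuclear genes of photosystem II, 10 of 12 of photosystem I, 1 of 2 of cytochrome b6f, 3 of 3 of the ATP synthase, 6 of 7 of NDH and 4 of 4 Rubisco small subunit genes fell. In ddm1 against F1, 26 of the 38 rose (median 1.80; 10.3% of all loci rose), and in ddm1 against WT 0 passed in edgeR or DESeq2, with 0 at an unadjusted p under 0.05. Without the 3 libraries rich in plastid ribosomal RNA, 3 were called in F1 against WT (median -1.22; 4.1% of all loci called) and 8 in ddm1 against F1 (median 1.99; 4.97%), and 0 in ddm1 against WT (3.41%). RBCS1A, for example, stood at 2050 ± 1152 CPM in WT, 403 ± 179 in F1 and 1627 ± 1341 in ddm1 (SD, n = 3), and fell by 2.35 ± 0.67 on the log2 scale in F1 against WT (adjusted p = 0.0324). rbcL, the plastid partner in the same enzyme, had a whole-table log2 difference of -0.53 ± 0.33 in that comparison (adjusted p = 0.281). The difference between the plastid and the nuclear genes was not itself tested.

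**Figure D5:**
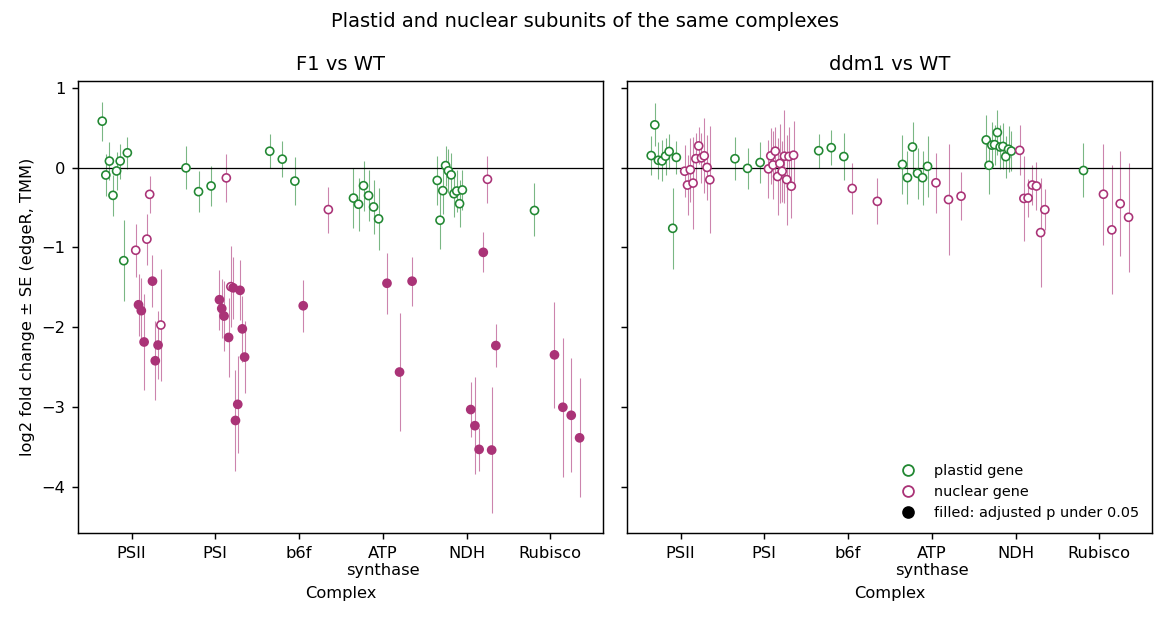
Log2 fold change with its SE (vertical axis, edgeR with TMM) of plastid genes (green) and nuclear genes (purple) for subunits of each complex (horizontal axis), for F1 against WT (left) and ddm1 against WT (right), from 3 libraries per group. Filled points have an adjusted p under 0.05: 30 of 38 nuclear genes in the left panel, no plastid gene in either panel.

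Nuclear regulators of plastid RNA were also followed. Sigma factors guide the plastid RNA polymerase to its promoters, and 5 of the 6 fell in F1 against WT (SIG1, SIG3, SIG4, SIG5 and SIG6), while SIG2 differed by -0.71 with an adjusted p of 0.0904. SIG5, known for its part in transcription of psbD from a light-responsive promoter, fell by 3.91 ± 0.30 on the log2 scale, from 66.2 ± 15.6 CPM in WT to 4.40 ± 1.26 in F1, against 39.8 ± 4.81 in ddm1 (SD, n = 3). psbD itself held 8.70%, 7.65% and 11.3% of the pool in WT and 11.9%, 12.2% and 9.30% in F1, with overlapping groups. SIG4, known for its part in transcription of ndhF, stood at 5.25 ± 2.49 CPM in WT, 1.14 ± 0.44 in F1 and 2.36 ± 0.48 in ddm1. Of 13 nuclear genes for plastid RNA processing and stability 7 fell in F1 against WT, among them HCF173 and HCF244, which act in translation of psbA, and HCF107, which protects psbH messenger. Among all tested loci 9.66% fell in that comparison. Without the 3 libraries rich in plastid ribosomal RNA, 1 sigma factor and 3 of the 13 processing genes were called, beside the 4.1% of all loci. Of 6 plastid RNA polymerase genes (plastid rpoA, rpoB, rpoC1 and rpoC2, nuclear RPOTp and RPOTmp), 0 passed in F1 against WT in edgeR or DESeq2 and 0 had an unadjusted p under 0.05. In ddm1 against WT 0 genes of these 3 lists passed in either tool, and 2 sigma factors had an unadjusted p under 0.05. On the list of senescence and dark markers, ASN1, an asparagine synthetase gene induced in darkness, stood at 7.48, 9.04 and 15.9 CPM in WT, 118, 53.1 and 8.18 in F1, and 0.0838, 0.457 and 3.10 for the ddm1 libraries. It passed edgeR's test between ddm1 and F1 (log2 difference -5.70, adjusted p = 0.0176). The summed list of 4 markers stood at 27.2 to 54.2 CPM in WT, 40.9 to 162 in F1 and 12.1 to 46.3 in ddm1. Its part in the plastid results was not tested.

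The 45 other plastid messenger loci served as the nearest comparison. For F1 against WT 38 of the 42 tested were below 0 (median -0.56 on the whole-table log2 scale) and 2 of them fell, ATCG00650 and ATCG01130, both named after their values were seen, where 9.66% of all tested loci fell. DESeq2 called 6 of the 42 in that comparison, beside 30.4% of all tested loci. For ddm1 against F1 edgeR had 1 of the 42 that rose, ATCG00650, where 10.3% of all tested loci rose. DESeq2 called 4 there, beside 24.7% of all tested loci. For ddm1 against WT 0 passed in edgeR or DESeq2 and 0 had an unadjusted p under 0.05, with a median of 0.01.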

How the data were processed

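Leaf RNA was depleted of ribosomal RNA and made into directional libraries, sequenced as single-end reads of 50 bases, per the labels' protocols. The authors deposited estimated counts and TPM for 33602 targets in each of 9 libraries, made with kallisto 0.46.0 per the submitters' processing notes, which also name TAIR10, STAR, deepTools, R 3.6.1, R 3.5.1 and DESeq2 1.22.2 without roles. The labels do not state the kallisto index or its fragment and strand options, so sense and antisense reads could not be told apart.

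Estimated counts were rounded and tested with edgeR 4.0.16 (R 4.3.3, quasi-likelihood, robust, filterByExpr, all groups in 1 fit), with Benjamini-Hochberg adjustment over 18216 loci and a threshold of 0.05. The whole-table scale used TMM. The pool scale used, as library size, all plastid counts less psbA, ribosomal RNA and transfer RNA. SE values come from the F statistic. Exact permutation tests of shares were two-sided and run in Python 3.11.15. TPM served only for levels per effective length. DESeq2 1.42.0 was an alternative. Groups and replicate numbers follow the labels, and library depth is given in the report. Wilson 95% intervals of psbA shares were far narrower than the spread between libraries and cover counting error only. No pair of libraries within a group agreed within sampling noise. The edgeR step was tested on simulated data.

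Genes given in every library were psbA, rbcL, the genes with the highest and lowest pool share in each complex and the 3 largest differences per comparison; others were named to describe an overlap, a ratio or a group. Members and lists were chosen with earlier results of these data known. The alternative without the 3 libraries rich in plastid ribosomal RNA was added after seeing the data.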

Additional observations from a re-analysis of the deposited data

How the results depend on the processing

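The number of the 43 genes called was 0 in each comparison and scale under most settings tried, which were DESeq2, no filter on low counts, scaling from nuclear loci, psbA kept in the pool, TMM among plastid messengers, only the 2 groups of a comparison, the replicate block, and leaving out each library. The exceptions were 1 gene higher in ddm1 than F1 with DESeq2 (psbZ) and calls made when WT 3 was left out. Leaving out single libraries gave 0 to 2 genes lower in F1 than WT on the whole-table scale and 0 to 1 higher on the pool scale. The correlation of same-numbered libraries' deviations ran from -0.52 to 0.14 for pairs with WT. Between F1 and ddm1 it was 0.072, 0.264 and 0.231, against -0.24 to 0.12 for differently numbered pairs. Whether replicate numbers pair the F1 and ddm1 libraries is thus not settled. With the replicate block 0 genes were called in every comparison on both scales. With TPM in place of counts the photosystem I share of ddm1 minus F1 was -0.097 percentage points (0.414 with counts). Leaving out single libraries turned the sign of several differences in percentage points. For ddm1 minus WT the ranges were -1.57 to 0.655 for the plastid share, -3.11 to 7.04 for the psbA share of plastid counts, -6.29 to 2.88 for the other genes' share, -0.326 to 4.73 for photosystem II, -1.10 to 0.208 for photosystem I and -5.10 to 0.473 for rbcL. For F1 minus WT NDH ran from -0.035 to 0.184, and for ddm1 minus F1 photosystem I from -0.463 to 1.36. The cause was not tested. With 3 libraries a group the exact tests cannot go below 0.1, and 12 genes had no counts to compare.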
